A study of Mus musculus with 6 samples.

Results

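The 10 genes described here encode transcription factors that act at early and late stages of granulocyte formation: Myb, Cebpa, Gfi1, Runx1, Cebpe, Irf8, Cebpb, Cebpd, Spi1 and Mxd1. They were chosen by name, and all 10 were found by symbol among the 41388 genes in the files. All 10 passed the filter on low counts, which kept 9971 genes. RNA came from C57BL/6 mouse bone marrow neutrophils that held the dye DiBAC4(3) at 250 nM, which brightens when the membrane depolarizes, and that were given the calcium ionophore ionomycin at 100 nM. Cells that depolarized and cells that stayed polarized were collected by sorting, 20000 per sample, from 2 to 4 minutes later. Both groups therefore carry dye and ionophore, and unstimulated cells were not analysed here. Each group has 3 libraries, and a code in the titles joins 1 library of each group into a pair, called pairs 1, 2 and 3. The depolarized library of pair 2 has another run label than the other 5, whose meaning is not given. In the reported fit, p-values rest on the spread between these samples that is left after differences between pairs are taken out. The labels do not give the age or sex of the mice or say whether animals were pooled.

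Neutrophils form from progenitors through promyelocyte, myelocyte and band stages, and the set of transcription factors changes along the way. MYB, RUNX1 and C/EBP-alpha act in progenitors, where C/EBP-alpha commits cells to the granulocyte line. GFI1 and C/EBP-epsilon act at the promyelocyte and myelocyte stages, when primary and then secondary granule proteins are made. C/EBP-beta, C/EBP-delta, PU.1 (the product of Spi1) and MXD1, a MAX partner that opposes MYC, are present in maturing cells, while IRF8 directs progenitors to monocytes and dendritic cells.

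Of the 10 genes, 7 have a promoter in the RefSeq table (build GRCm38.p6). Cebpe, Cebpd and Spi1 are not in it. The 250 bases before the start site are printed 5′ to 3′ for Myb and Irf8, whose libraries did not overlap between the groups, and for Cebpa, Cebpb and Mxd1, whose libraries did. Capitals mark matches on either strand. The letters searched were TTGCNNAA for C/EBP, GAGGAA for PU.1, TGTGGT for RUNX, CACGTG for the E-box, and the GFI1 motif. Core promoter elements were searched as TATAAA for the TATA box, CCAAT for the CCAAT box and GGGCGG for the GC box.
Myb, chr10:21160985-21161234, minus strand: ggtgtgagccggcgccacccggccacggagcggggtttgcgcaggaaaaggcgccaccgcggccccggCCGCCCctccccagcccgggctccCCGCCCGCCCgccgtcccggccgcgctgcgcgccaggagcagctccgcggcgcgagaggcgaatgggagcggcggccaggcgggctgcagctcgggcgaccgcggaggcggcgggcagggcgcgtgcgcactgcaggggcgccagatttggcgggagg
Irf8 (first promoter), chr8:120736108-120736357, plus strand: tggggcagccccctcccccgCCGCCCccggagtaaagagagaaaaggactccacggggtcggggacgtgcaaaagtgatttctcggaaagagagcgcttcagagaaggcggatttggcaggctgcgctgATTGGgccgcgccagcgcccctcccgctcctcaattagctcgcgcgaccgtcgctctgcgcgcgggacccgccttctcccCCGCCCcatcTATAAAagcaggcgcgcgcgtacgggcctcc
Cebpa, chr7:35119043-35119292, plus strand: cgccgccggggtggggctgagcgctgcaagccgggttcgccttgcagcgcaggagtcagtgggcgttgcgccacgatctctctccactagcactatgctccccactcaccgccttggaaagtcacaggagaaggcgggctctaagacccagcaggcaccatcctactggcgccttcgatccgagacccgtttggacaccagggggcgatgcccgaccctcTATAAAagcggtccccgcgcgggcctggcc
Cebpb, chr2:167688665-167688914, plus strand: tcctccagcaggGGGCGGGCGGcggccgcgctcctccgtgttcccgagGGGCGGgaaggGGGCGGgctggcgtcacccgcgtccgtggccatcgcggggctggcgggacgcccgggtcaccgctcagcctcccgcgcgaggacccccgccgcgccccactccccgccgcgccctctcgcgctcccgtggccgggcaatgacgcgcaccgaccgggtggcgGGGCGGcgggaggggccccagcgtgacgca
Mxd1, chr6:86669160-86669409, minus strand: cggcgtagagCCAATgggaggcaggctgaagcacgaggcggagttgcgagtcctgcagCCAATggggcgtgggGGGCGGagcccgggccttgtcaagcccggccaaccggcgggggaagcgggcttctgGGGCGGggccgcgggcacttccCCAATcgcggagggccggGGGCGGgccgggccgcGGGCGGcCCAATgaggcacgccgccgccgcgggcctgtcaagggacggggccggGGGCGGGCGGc
All 5 printed windows were richer in G and C than the median window: these bases made up 81.2% of the Myb window, 81.6% for Cebpb, 78.4% for Mxd1, 67.2% for Irf8 and 66.4% for Cebpa, against a median of 52.4% over all 32851 windows. The Myb window held 3 GC box matches, of which 2 overlapped, and the Mxd1 window held 6 GC boxes and 4 CCAAT boxes. A TATA box match began 30 bases before the start in Cebpa and 31 bases before it in Irf8, and 12.4% of all windows hold it. The windows of Gfi1 and Runx1, each with 2 promoters in the table, overlap annotated transcript and are not printed. Among these, the first Gfi1 window held the C/EBP letters, the first Runx1 window the E-box and the second Runx1 window the PU.1 letters. None of the 5 printed windows held the C/EBP letters (in 9.56% of all windows), the PU.1 letters (23.3%), the RUNX letters (14.0%), the E-box (6.02%) or the GFI1 motif (2.40%). CCAAT was in 33.8% of all windows and the GC box in 32.7%. The short MYB core AACNG, present in 74.2% of all windows, is not in capitals. Irf8 has a second promoter in the table, not printed, with 54.0% G and C and no match to the TATA box, CCAAT box or GC box. Such matches describe letters only.

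All libraries were rich in neutrophil transcripts, and total counts ran from 16904969 to 20381489. The 11 neutrophil markers, among them S100a8, S100a9 and Ly6g, summed to between 197513 and 243634 CPM (counts scaled to library totals) in polarized and between 170582 and 193299 CPM in depolarized libraries. Over all 9971 genes tested, 8 were called higher and 24 lower in depolarized cells at an adjusted p under 0.05 (edgeR quasi-likelihood test, pairs as a block), with 0 and 6 when libraries were scaled to their totals alone. With no replicate block edgeR called 0 and 0, with 511 genes at an unadjusted p under 0.05. The polarized library of pair 1 stands apart: chi-square over its degrees of freedom was 100.2 and 96.1 against the other polarized libraries and 29.1 to 45.0 in the other comparisons within a group. Without pair 1, edgeR called 500 higher and 518 lower. The samples are sorted populations, and fewer cells of a type and less RNA per cell cannot be told apart.

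The late-stage factors dominated the set. RPKM (reads per kilobase of listed gene length scaled to library totals) allows levels to be compared between genes. On this scale Mxd1 came first at a mean of 242 over the 6 libraries, followed by Spi1 at 45.5, Cebpd at 35.1, Cebpb at 26.7 and Cebpe at 16.5. Cebpa at 3.78, Runx1 at 1.59, Myb at 1.35, Gfi1 at 0.152 and Irf8 at 0.101 RPKM followed. Mxd1 stood at percentile 98.0 of the tested genes by mean RPKM, Spi1 at 91.7 and Cebpd at 89.8, while Myb stood at percentile 36.5, Gfi1 at 4.01 and Irf8 at 1.74.

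Most steps of this order held in each library. Mxd1 was 4.39 to 6.38 times Spi1 in RPKM, and these ranges did not meet. Spi1 was above Cebpd, Cebpd above Cebpb and Cebpb above Cebpe in 6 of 6 libraries, although their ranges over the libraries overlapped. The order of Runx1 and Myb differed between the groups: Myb was the higher in all 3 polarized libraries and Runx1 in all 3 depolarized ones. In the polarized libraries of pairs 1, 2 and 3, Myb was at 1.51, 1.81 and 2.19 RPKM and Runx1 at 1.099, 1.72 and 1.94. In the depolarized ones Myb was at 0.636, 0.611 and 1.34 RPKM and Runx1 at 1.90, 1.48 and 1.39, so they were close in pair 3. Gfi1 was above Irf8 in 4 of 6 libraries. The order depends on the gene models in the files: Cebpd is listed with 1180 bases and Myb with 4092, against 3746 and 8933 exon bases in GENCODE M21.

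**Figure D1:**
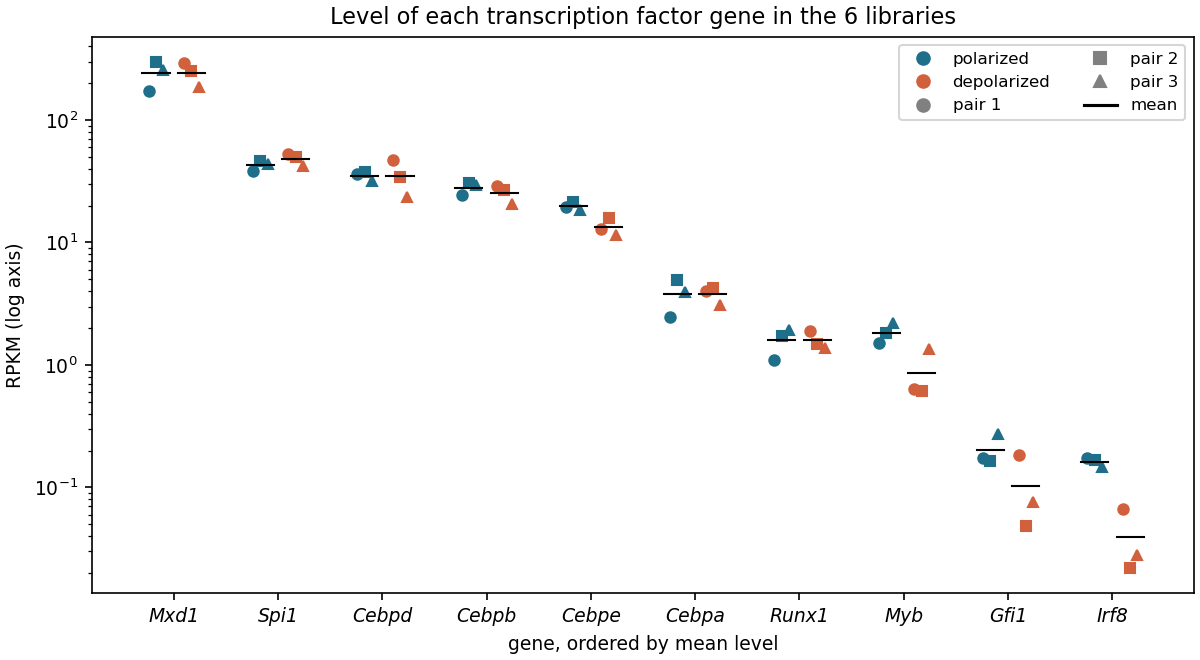
RPKM of the 10 genes in the 6 libraries on a log axis, with polarized libraries in teal, depolarized in orange, a symbol per pair and a bar at each group mean (n = 3). Mxd1 lies above all others, and the depolarized libraries of Cebpe, Myb and Irf8 all lie below the polarized ones.

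None of the 10 genes passed the test between the groups, but 3 of them had libraries that did not overlap. With edgeR, 0 of 10 were called higher and 0 of 10 lower, where edgeR called 0.0802% and 0.241% of all genes tested. DESeq2 also called 0 of the 10, and 16 genes higher and 23 lower over all genes tested. Myb, Irf8 and Cebpe had all depolarized libraries below all polarized ones in CPM, as did 3.14% of all genes tested, or 4.54% after TMM scaling. In 0 of 10 were all depolarized libraries above, against 7.28% of all genes in CPM and 4.59% after TMM scaling. The same 3 genes had an unadjusted edgeR p under 0.05 in the lower direction, against 3.32% of all genes, and 0 of 10 in the higher direction, against 3.26%. After TMM scaling those 3 and Gfi1 were lower in all 3 pairs (12.1% of all genes), though Gfi1 in only 2 of 3 in plain CPM. Spi1 was higher in all 3 pairs after TMM scaling (12.9% of all genes) and in 2 of 3 in plain CPM. Of the 10, 9 were fitted below 0 with a median log2 fold change of -0.17, against a median of -0.00 and 50.4% below 0 over all genes tested. Members were chosen with earlier results of these data known, so these counts are descriptions.

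**Figure D2:**
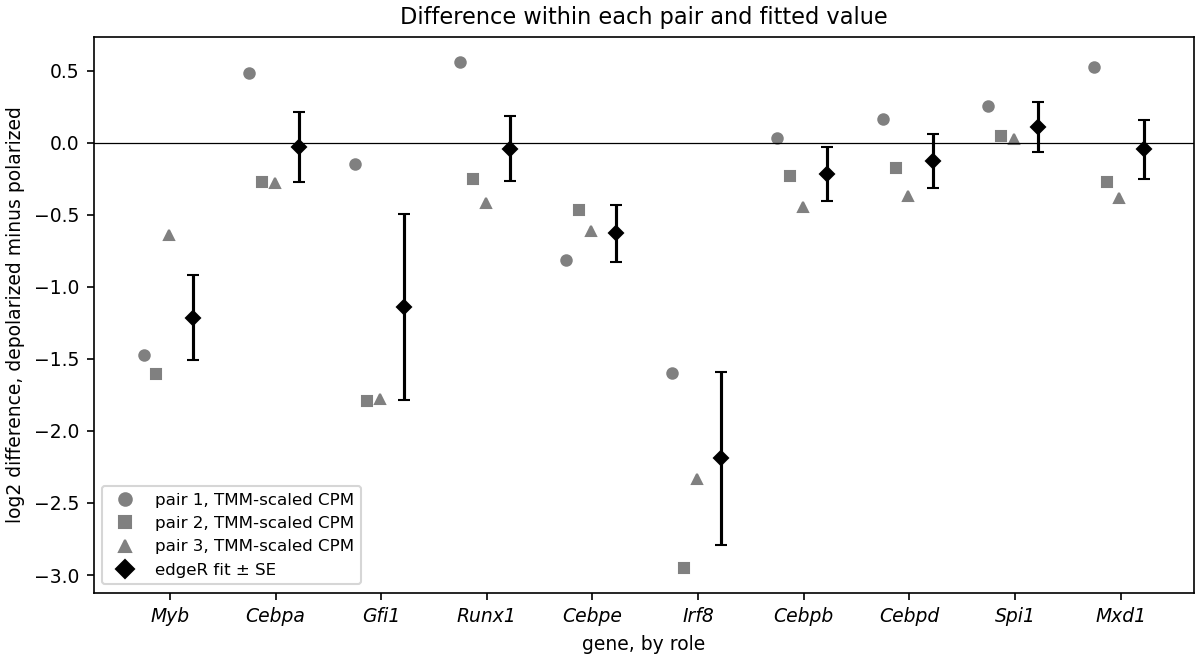
Log2 difference, depolarized minus polarized, of TMM-scaled CPM within each pair (grey symbols) and the edgeR estimate with its standard error (black), for the 10 genes by role. Myb, Gfi1, Cebpe and Irf8 have every pair below 0 (Gfi1 in 2 of 3 pairs in plain CPM), while pair 1 lies above 0 and pairs 2 and 3 below it for Cebpa, Runx1, Cebpb, Cebpd and Mxd1.

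Among the early factors, Myb had the largest difference on many counts. Myb (ENSMUSG00000019982, chromosome 10, 21124936 to 21160905, minus strand, GRCm38) encodes a factor that keeps progenitors dividing and immature. Its level was 6.17, 7.40 and 8.95 CPM in the polarized libraries of pairs 1, 2 and 3 and 2.60, 2.50 and 5.50 CPM in the depolarized ones. The highest depolarized value, in pair 3, lay under the lowest polarized value, and the groups did not overlap. Summed counts were 420 in polarized and 204 in depolarized cells; scaled by depth, polarized was 2.08 times depolarized (1.75 to 2.47, 95% exact binomial interval for counting error). Its fitted log2 fold change was -1.22 ± 0.29 (SE) with an edgeR adjusted p of 0.127. Within pairs the log2 difference was -1.47, -1.60 and -0.64. Without pair 1 Myb was called lower (-1.08, edgeR adjusted p 0.00216), as were 518 of 10102 genes tested. Without pair 3 it was called (-1.53, edgeR adjusted p 0.0237) among 74 of 10045 genes called lower. With no low count filter it was called (-1.21, edgeR adjusted p 0.00706) among 96 of 21979.

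Values of a gene and of a cell type that could bear on Myb are given beside it. The opposite-strand gene Gm26577 overlaps 491 of the 4092 listed Myb bases and held 97 counts against 624. Its mean was 0.833 ± 0.636 CPM among polarized and 0.848 ± 0.616 CPM among depolarized libraries (SD, n = 3). Whether counting used strand is not stated. Markers of blood progenitors were few: the 8 genes of that list summed to between 7.75 and 10.04 CPM in polarized and between 4.2 and 8.50 CPM in depolarized libraries. The members went in both directions. The receptor gene Kit held 192 counts in polarized and 169 in depolarized cells, and its CPM was lower in the depolarized library of each pair. Cd34 held 12, 0 and 11 counts in polarized and 0, 4 and 0 in depolarized libraries. Prom1 was at 4.18, 3.99 and 3.16 CPM in polarized and 1.24, 3.13 and 2.50 CPM in depolarized libraries. Like Myb, Prom1 had each depolarized library below each polarized one. Flt3, another receptor gene, held 1, 1 and 6 counts in polarized and 6, 9 and 2 in depolarized libraries, and Cd27 held 9, 15 and 4 and 5, 21 and 14. Sox4 held 1, 1 and 0 counts in polarized libraries and was at 0 in all depolarized ones. The part of such cells in the Myb values was not tested.

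Cebpa did not share the Myb pattern. Cebpa (ENSMUSG00000034957, chromosome 7, 35119293 to 35121926, plus strand), the gene of the factor that opens the granulocyte program, was at 6.48, 13.1 and 10.3 CPM in polarized and 10.6, 11.2 and 8.14 CPM in depolarized libraries. The lowest and the highest value both came from polarized libraries. In the fit, the log2 fold change was -0.03 ± 0.25 (SE, edgeR adjusted p 1), with pair differences of 0.48, -0.27 and -0.28. Its sign changed with the setting, to 0.04 with library totals, 0.10 without pair 2 and 0.10 without pair 3.

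Runx1 also overlapped between the groups. Runx1 (ENSMUSG00000022952, chromosome 16, 92601466 to 92826149, minus strand) encodes the DNA-binding part of the core binding factor. It was at 13, 20.3 and 22.9 CPM in polarized and 22.4, 17.5 and 16.4 CPM in depolarized libraries. The polarized library of pair 1 was the lowest of the 6, and the groups overlapped. The fitted log2 fold change was -0.04 ± 0.23 (SE, edgeR adjusted p 1), and it was above 0 with library totals (0.02), without pair 2 (0.07) and without pair 3 (0.15).

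Gfi1 was barely detected. Gfi1 (ENSMUSG00000029275, chromosome 5, 107716657 to 107726036, minus strand) encodes a zinc finger repressor that favours granulocytes over monocytes. It held 11, 9 and 17 counts in polarized and 10, 3 and 5 counts in depolarized libraries, or 0.656 ± 0.194 and 0.331 ± 0.230 CPM (SD, n = 3). The depolarized library of pair 1 lay among the polarized values, so the groups overlapped. The ratio of the summed counts, 37 and 18, was 2.07 with a 95% counting interval of 1.15 to 3.87. The fitted log2 fold change of -1.14 ± 0.64 (SE) had an edgeR adjusted p of 0.882. It was -1.75 without pair 1 and -0.82 without pair 3. In pair 1 the difference was -0.15 after TMM scaling and 0.08 in plain CPM, so its direction there depends on the scaling.

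Cebpe was lower in the depolarized library of each pair. Cebpe (ENSMUSG00000052435, chromosome 14, 54710363 to 54712174, minus strand) encodes C/EBP-epsilon, which turns on secondary granule genes. It was at 24.1, 26.4 and 22.6 CPM in polarized and 16.0, 19.6 and 14.2 CPM in depolarized libraries, which is 24.3 ± 1.89 and 16.6 ± 2.75 CPM (SD, n = 3). Each depolarized library lay below each polarized one. The summed counts were 1358 and 936, with a ratio of 1.46 and a 95% counting interval of 1.35 to 1.59. Its fitted log2 fold change was -0.63 ± 0.20 (SE; edgeR adjusted p 0.354). The pairs gave -0.81, -0.47 and -0.61. Without pair 1 it was called lower (-0.54, edgeR adjusted p 0.0216), as were 518 of 10102 genes tested. Cebpe has no exon overlap with another gene in the files' gene models.

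Genes of early and mid granulocyte stages, most of them granule genes, were fitted lower in the depolarized libraries. Of 13 such genes, all tested, 9 fell in depolarized cells by edgeR, 0 rose and 4 were not called, against 0.241% of all genes tested called lower and 0.0802% higher, with a median log2 fold change of -1.57. This list was written with earlier results of these data known. Among secondary granule genes, which C/EBP-epsilon is known to activate, Ltf had a log2 fold change of -1.38 ± 0.28 (SE, edgeR adjusted p 0.0427) and Camp of -1.46 ± 0.25 (SE, edgeR adjusted p 0.0144). Ngp, at -1.12, and Lcn2, at -0.48, were not called (edgeR adjusted p 0.0817 and 0.652). Pair 1 had the largest difference for Ltf, -2.51 against -1.02 and -0.64 in pairs 2 and 3. Of the primary granule genes, Mpo, Elane, Prtn3 and Ctsg were called lower, with fitted log2 fold changes of -5.30, -5.66, -3.55 and -5.54. Polarized libraries differed widely, with pair 1 the highest. Mpo was at 146, 19.8 and 13.4 CPM in polarized and 5.86, 0.208 and 0.294 CPM in depolarized libraries. Elane was at 109, 39.2 and 13.1 CPM and 5.09, 0.104 and 0.147 CPM. Ctsg held 294 counts in polarized and 5 in depolarized cells. The other genes called lower were Fcnb, Ms4a3 and Chil3. The part of cells of an earlier stage in the Cebpe values was not tested.

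Irf8 had the largest fold difference of the 10, on few counts. Irf8 (ENSMUSG00000041515, chromosome 8, 120736358 to 120756694, plus strand) encodes an interferon regulatory factor of the monocyte and dendritic cell lines, also used by B cells. It held 24, 20 and 20 counts in polarized and 8, 3 and 4 counts in depolarized libraries, or 1.22, 1.17 and 1.03 CPM and 0.473, 0.156 and 0.196 CPM. Polarized libraries were close to each other and all above the depolarized ones. The ratio of the summed counts, 64 and 15, was 4.31 with a 95% counting interval of 2.43 to 8.13. In the fit, the log2 fold change was -2.19 ± 0.60 (SE; edgeR adjusted p 0.212). Without pair 1 it was called lower (-2.58, edgeR adjusted p 0.0283), as were 518 of 10102 genes tested. The stricter filter removed Irf8 and Gfi1.

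Sums of markers of other cell types that use Irf8 overlapped between the groups, but some single markers did not. Most of each sum came from a single gene, Ly6c2 for monocytes, Cd74 for dendritic cells and Ighm for the B lineage. In the polarized library of pair 1 these were at 1061, 29.3 and 521 CPM. The sums thus say little on the other markers. The 10 monocyte markers summed to between 938 and 1249 CPM in polarized and between 875 and 962 CPM in depolarized libraries, and 0 of 5 tested were called. Among them, the chemokine receptor gene Ccr2, chosen after its values were seen, held 22, 25 and 30 counts in polarized and 9, 0 and 1 counts in depolarized libraries (log2 fold change -3.22 ± 0.80, SE, edgeR adjusted p 0.139). Other monocyte markers, also named after their values were seen, went in both directions. Csf1r, Ctss and Cx3cr1 were higher in the depolarized library of each pair. The receptor gene Csf1r was at 105, 102 and 112 CPM in polarized and 157, 166 and 168 CPM in depolarized libraries, and Ctss, a lysosomal protease gene, at 73.7, 37.4 and 42.2 CPM and 126, 55.1 and 58.6 CPM. Cx3cr1 held 5, 1 and 3 counts in polarized and 9, 14 and 4 in depolarized libraries. Ly6c2 was at 1061, 903 and 781 CPM in polarized and 657, 651 and 735 CPM in depolarized libraries, where each lay below every polarized one. Ms4a6c held 43, 1 and 7 counts in polarized and 0, 0 and 2 in depolarized libraries. F13a1 held 97, 6 and 13 counts and 11, 18 and 3 counts, and was higher in the depolarized library of pair 2 only. The 11 dendritic cell markers summed to between 41.1 and 68.7 CPM in polarized and between 39.5 and 61.4 CPM in depolarized libraries, with 0 of 7 tested called. H2-Ab1, named after its values were seen, had each depolarized library below each polarized one. It was at 1.38, 2.06 and 3.57 CPM in polarized and 1.24, 0.886 and 0.981 CPM in depolarized libraries. H2-Aa overlapped, and Zbtb46 was higher in the depolarized libraries of pairs 1 and 3. The 9 B lineage markers summed to between 444 and 526 CPM in polarized and between 480 and 962 CPM in depolarized libraries, with 0 of 7 tested called. Ighm was higher in the depolarized library of each pair, and Ms4a1 in pair 1 only. The 8 macrophage markers summed to between 98.8 and 125 CPM in polarized and between 113 and 155 CPM in depolarized libraries, with 0 called. Most of that sum came from Adgre1, which was higher in the depolarized library of each pair. In contrast, C1qa, C1qb, C1qc and Axl, named after their values were seen, had each depolarized library below each polarized one. Vcam1, Mrc1 and Cd5l overlapped between the groups. The part of these cell types in the Irf8 values was not tested.

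The late factors Cebpb and Cebpd overlapped between the groups. Cebpb (ENSMUSG00000056501, chromosome 2, 167688915 to 167690418, plus strand) encodes C/EBP-beta, which serves emergency granulopoiesis and mature myeloid cells. It was at 36.6, 45.8 and 44.0 CPM in polarized and 43.7, 40.1 and 30.9 CPM in depolarized libraries. The depolarized library of pair 3 was the lowest of the 6. The fitted log2 fold change was -0.22 ± 0.19 (SE, edgeR adjusted p 1). The opposite-strand gene Tmem189 overlaps 20.7% of the listed Cebpb bases and held 2555 counts against 4487, so part of these reads is uncertain.

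Cebpd varied more among depolarized than among polarized libraries. Cebpd (ENSMUSG00000071637, chromosome 16, 15887286 to 15888466, plus strand) encodes C/EBP-delta, an inducible factor of mature neutrophils. It was at 42.4, 44.7 and 37.4 CPM in polarized and 55.5, 40.7 and 27.7 CPM in depolarized libraries. The highest and the lowest value both came from depolarized libraries, and the means were 41.5 ± 3.74 and 41.3 ± 13.9 CPM (SD, n = 3). Its fitted log2 fold change was -0.13 ± 0.19 (SE, edgeR adjusted p 1). Cebpd exceeded Cebpb by 1.08 to 1.62 times in RPKM in the 6 libraries.

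Spi1 was the only one of the 10 fitted above 0. Spi1 (ENSMUSG00000002111, chromosome 2, 91082390 to 91115756, plus strand) encodes PU.1, an ETS factor needed for all myeloid cells. It was at 103, 126 and 117 CPM in polarized and 143, 133 and 114 CPM in depolarized libraries. The groups overlapped through pair 3. In the fit, the log2 fold change was 0.11 ± 0.17 (SE, edgeR adjusted p 1), the smallest SE of the 10 genes, and pair differences were 0.25, 0.05 and 0.03. In plain CPM pair 3 gave -0.04.

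Mxd1 was the most abundant of the set in every library. Mxd1 (ENSMUSG00000001156, chromosome 6, 86647044 to 86669159, minus strand) encodes a repressor that pairs with MAX at E-boxes as cells stop dividing. It was at 805, 1387 and 1184 CPM in polarized and 1356, 1178 and 868 CPM in depolarized libraries. The polarized library of pair 1 was the lowest of the 6 and the depolarized library of pair 3 the next. The means were 1125 ± 295 and 1134 ± 247 CPM (SD, n = 3), and the fitted log2 fold change was -0.05 ± 0.20 (SE, edgeR adjusted p 1). The pairs gave 0.53, -0.27 and -0.39. Without pair 1 Mxd1 was called lower (-0.33, edgeR adjusted p 0.0180), as were 518 of 10102 genes tested. In contrast, it was fitted at 0.07 without pair 2, 0.13 without pair 3 and 0.02 with library totals.

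Early to late ratios were lower in depolarized cells in each pair. The ratio sets the summed RPKM of Myb, Cebpa, Gfi1, Runx1 and Cebpe against that of Cebpb, Cebpd, Spi1 and Mxd1 within a library, so it does not depend on library scaling. It was 9.10%, 7.26% and 7.42% in the polarized and 4.68%, 6.11% and 6.37% in the depolarized libraries of pairs 1, 2 and 3. The groups did not overlap, and pair 1 held both the highest and the lowest value. Within pairs the log2 difference was -0.96, -0.25 and -0.22, with a mean of -0.48. The mean was -0.23 without pair 1. As a score over chosen genes the ratio was not tested. Cebpe made up 65.8% to 78.8% of the early sum and Mxd1 63.7% to 72.1% of the late sum, so the ratio is mostly that of these genes. With Mxd1 left out of the late sum, an alternative added after seeing the data, it was 25.1%, 26.05% and 25.5% in polarized and 15.2%, 20.1% and 20.1% in depolarized libraries.

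**Figure D3:**
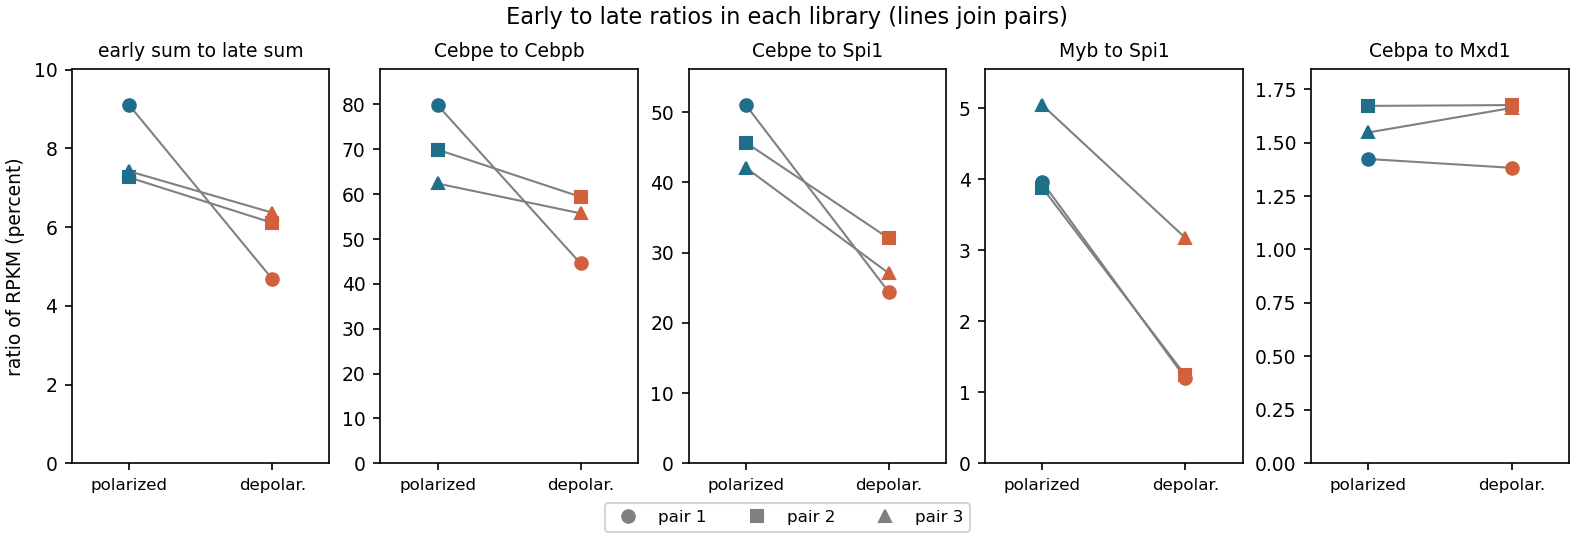
Ratio of RPKM in percent within each library, for the early against the late sum and for 4 single-gene ratios, with lines joining the libraries of a pair. The early sum, Cebpe and Myb are lower against late factors in the depolarized library of every pair, while Cebpa against Mxd1 is between 1.38% and 1.68% in all libraries.

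Single-gene ratios differed between the early factors in whether the groups overlapped. Cebpe against Cebpb was 79.9%, 69.9% and 62.4% in polarized and 44.6%, 59.4% and 55.7% in depolarized libraries. Cebpe against Spi1 was 51.0%, 45.7% and 42.1% in polarized and 24.4%, 32.0% and 27.0% in depolarized libraries. Neither of these ratios overlapped between the groups. Myb against Spi1 was 3.96%, 3.88% and 5.04% in polarized and 1.20%, 1.24% and 3.17% in depolarized libraries, and it did not overlap either. Against Cebpb, Cebpd and Mxd1, Myb was lower within every pair but overlapped between the groups, since the depolarized library of pair 3 was high.

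For Cebpa and Runx1, the group means of the ratio to Mxd1 lay within 1 SD of each other. Cebpa against Mxd1 was 1.55% ± 0.124 in polarized and 1.57% ± 0.166 in depolarized libraries (SD, n = 3). Runx1 against Mxd1 was 0.659% ± 0.0949 and 0.661% ± 0.0798. Cebpa against Cebpe was 12.6%, 23.3% and 21.5% in polarized and 31.0%, 26.8% and 27.0% in depolarized libraries, with all depolarized values above all polarized ones. Irf8 against each of the 4 late genes had no overlap between the groups, on counts of 64 and 15. Gfi1 overlapped against Cebpb and Mxd1 and not against Cebpd and Spi1, on counts of 37 and 18.

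Cebpe made up less of the C/EBP messenger RNA in each depolarized library than in any polarized one. Over the 4 C/EBP genes, which share a leucine zipper and bind like DNA sites as pairs, Cebpd made up 38.1% to 50.5% of the summed RPKM, Cebpb 29.6% to 35.2% and Cebpa 2.99% to 5.28%. Cebpe made up 23.7%, 22.5% and 21.96% in polarized and 13.9%, 19.5% and 19.6% in depolarized libraries. The shares of the other 3 genes overlapped between the groups, and these shares were not tested.

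**Figure D4:**
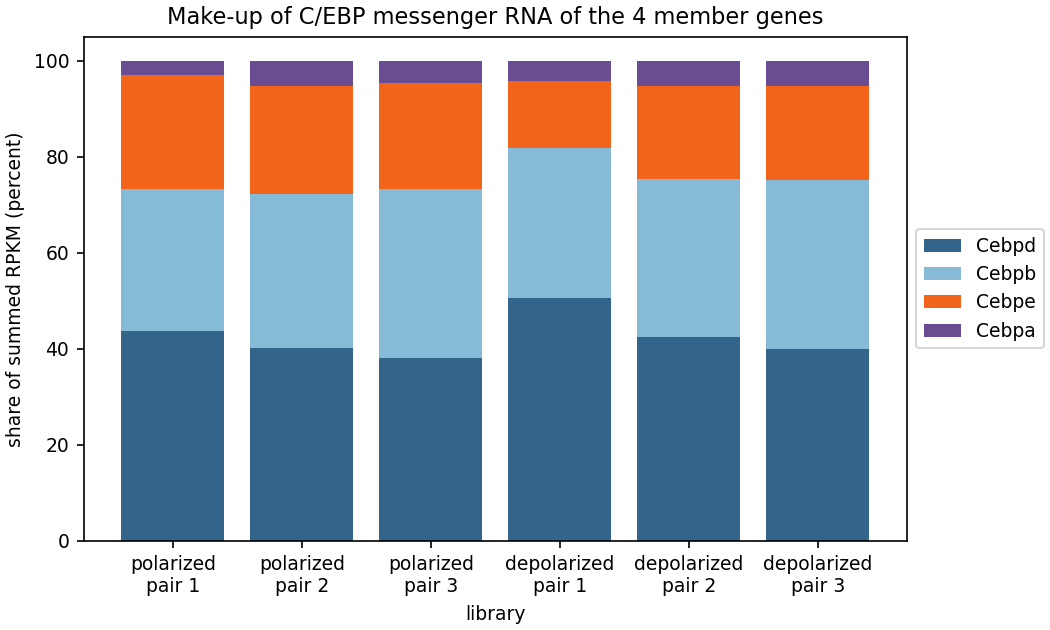
Share of the summed RPKM of Cebpd, Cebpb, Cebpe and Cebpa in each library, in percent. The Cebpe segment is 21.96% to 23.7% in the 3 polarized and 13.9% to 19.6% in the 3 depolarized libraries.

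The genes whose values most resembled each factor were found by Pearson correlation of TMM-scaled log2 CPM over the 6 libraries, among 5234 genes with a mean log2 CPM of at least 3. These values are descriptions with no test, since the 6 libraries share 3 pairs and 2 groups and many genes were searched. Closest to Myb were Mgst2 (r = 0.979) and Fam172a (0.977), and closest to Cebpe were Mapk13 (0.946) and Cdk2 (0.945). Closest to Irf8 were Elane (0.980) and Son (0.977), and closest to Gfi1 were Amer2 (0.952) and Casd1 (0.933). For Cebpa they were Fam168b (0.995) and Tmed7 (0.992), and for Runx1 they were Synj1 (0.992) and Atp1b3 (0.987). Cebpb lay closest to Ppp1r3d (0.970) and Efcab14 (0.963), and Cebpd to Gm26532 (0.989) and Cmpk2 (0.989). Spi1 lay closest to Tor3a (0.985) and Csf1 (0.980), and Mxd1 to Mbd6 (0.992) and Prex1 (0.991). Among the 10 themselves, Cebpa and Mxd1 had r = 0.883, Irf8 and Gfi1 0.872, Irf8 and Cebpe 0.849, and Myb and Spi1 -0.78.

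None of the tested partner genes of these factors was called by edgeR. In the MYC, MAX and MXD network 0 of 7 tested genes were called, with a median log2 fold change of -0.10, and 0 had an unadjusted edgeR p under 0.05. Max, the common partner, was at 180 ± 9.35 and 172 ± 34.2 CPM (SD, n = 3), and Mxd4 and Mnt had log2 fold changes of 0.21 and -0.22. Myc itself held 27, 12 and 0 counts in polarized and 6, 0 and 0 counts in depolarized libraries and was below the filter, against 62289 and 63218 counts of Mxd1. Mycl had 0 counts in all libraries.

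In the C/EBP and bZIP list 0 of 11 tested genes were called, 2 had an unadjusted edgeR p under 0.05 and the median was 0.00. Atf3, a stress-induced factor, was at 12.1 ± 1.99 and 22.5 ± 2.87 CPM (SD, n = 3) with a log2 fold change of 0.83 ± 0.20 (SE, edgeR adjusted p 0.133). Batf had a log2 fold change of 0.51 (edgeR adjusted p 0.696). Cebpg, the partner with no activation domain, was at 18.5 ± 2.11 and 19.4 ± 2.14 CPM.

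In the RUNX list 0 of 6 tested genes were called, 0 had an unadjusted edgeR p under 0.05 and the median was -0.02, with Cbfa2t2 at 0.29 and Runx3 at 0.40. The RUNX1 partner gene Cbfb was at 29.9 ± 6.08 and 30.9 ± 1.82 CPM. Runx2, at 51.7 ± 7.06 and 52.7 ± 4.16 CPM, was above Runx1 also per length, with 5.90 against 1.59 RPKM.

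In the PU.1 and IRF list 0 of 17 tested genes were called, 3 had an unadjusted edgeR p under 0.05 and the median was 0.11. Egr1 and Egr2, immediate early genes that favour macrophages when induced downstream of PU.1, had log2 fold changes of 0.72 ± 0.25 and 0.87 ± 0.33 (SE, edgeR adjusted p 0.447 and 0.550). In the list of GFI1 corepressors 0 of 7 were called, 1 had an unadjusted edgeR p under 0.05 and the median was 0.03. Gfi1b, the relative of Gfi1 used in red cells and platelets, held 5, 1 and 0 counts in polarized and 12, 15 and 15 counts in depolarized libraries, opposite in direction to Gfi1 (log2 fold change 2.79 ± 0.83, SE, edgeR adjusted p 0.305). Rcor1 had a log2 fold change of -0.48 (edgeR adjusted p 0.783).

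Among progenitor factors 0 of 12 tested genes were called, 1 had an unadjusted edgeR p under 0.05 and the median was -0.23. Lmo2 had a log2 fold change of -0.57 ± 0.24 (SE, edgeR adjusted p 0.652) and Lmo4 of -0.33 ± 0.19 (SE, edgeR adjusted p 0.906), with pair 1 above 0 and pairs 2 and 3 below 0 for both. Among signal-driven and late-stage factors 0 of 19 were called, 1 had an unadjusted edgeR p under 0.05 and the median was 0.05, with Klf5 at -0.56 and Zeb2 at 0.35. Late-stage neutrophil genes that are not transcription factors had 0 of 14 called, 5 with an unadjusted edgeR p under 0.05 and a median of 0.20. Among these, the receptor gene Ccrl2 had a log2 fold change of 0.82 (edgeR adjusted p 0.0817) and Wfdc17 of 0.62 (edgeR adjusted p 0.247).

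**Figure D5:**
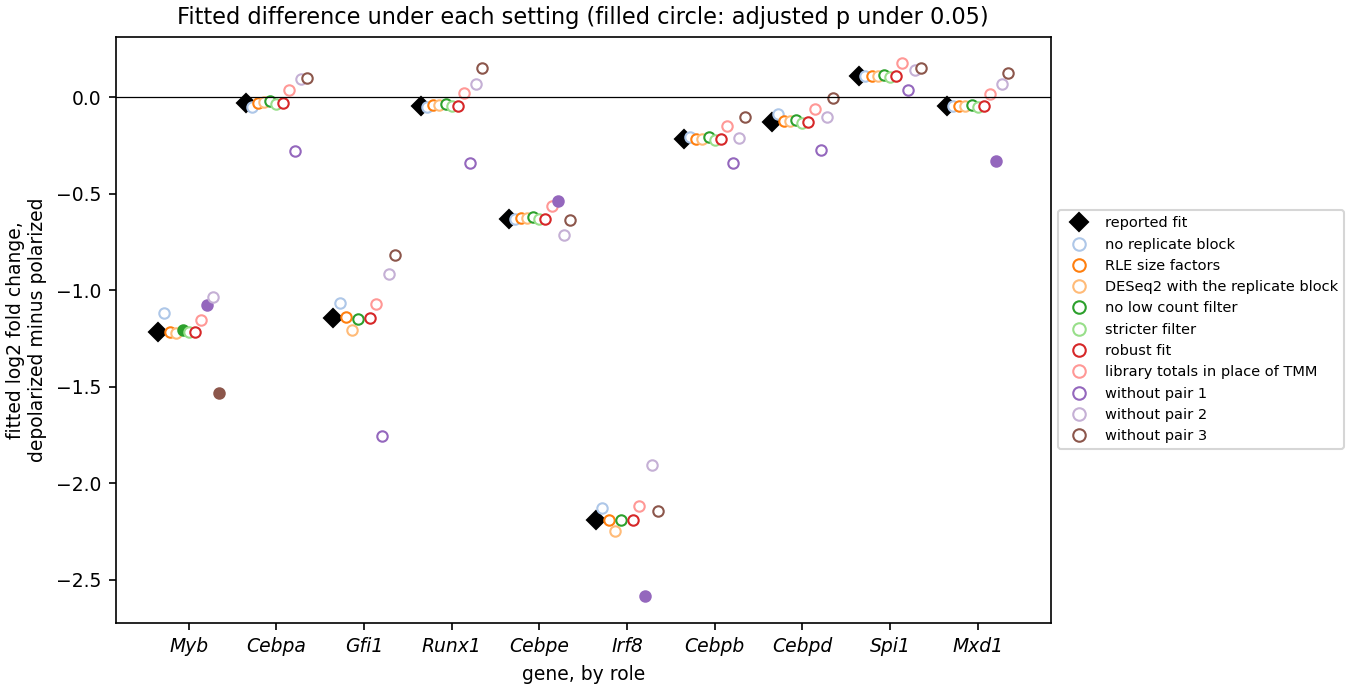
Fitted log2 fold change, depolarized minus polarized, of each of the 10 genes in the reported fit (black diamonds) and under the 10 other settings (circles, filled where the adjusted p is under 0.05). Filled circles occur for Myb, Cebpe, Irf8 and Mxd1 and all but 1 of them leave out a pair; Cebpa, Runx1 and Mxd1 lie on both sides of 0.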

How the data were processed

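RNA of 6 libraries, 3 of polarized and 3 of depolarized neutrophils, was made into cDNA with a Clontech SMARTer low-input kit, per the labels' protocols. The submitters' processing notes name STAR 2.0.4b, featureCounts 1.45, Subread and bcl2fastq, and build GRCm38. Strand setting, handling of multi-mapping reads and annotation release: not given in the sources used here. The authors deposited raw counts per gene. The deposited CPM values equal counts scaled to the library total, and the deposited RPKM values equal CPM per kilobase of the listed length (largest differences 4.8e-10 and 6.98e-10). Symbols were matched for 40254 of 41388 genes. Reads shared by overlapping genes may have been dropped or assigned to either gene.

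Counts were tested in R 4.3.3 with edgeR 4.0.16: filterByExpr by group, TMM scaling, and the quasi-likelihood F test with the title code as a block (2 residual degrees of freedom), adjusted over 9971 genes by Benjamini-Hochberg at a threshold of 0.05. Pairing rests on the series' design text, which describes biological replicate pairs. Deviations from group means correlated at r = 0.03, 0.27 and 0.08 within pairs 1, 2 and 3. Between libraries of different pairs r ran from -0.22 to 0.13. The highest of these joined the polarized library of pair 1 to the depolarized library of pair 3, above the value within pair 1. The SE of a log2 fold change is the estimate divided by the square root of F. Within a group, all libraries differed beyond sampling noise (chi-square over degrees of freedom 29.1 to 100.2). The fit was tested on simulated data. DESeq2 1.42.0 and other settings were alternatives. Intervals and a floor of 3 counts (0.0536 CPM over the polarized and 0.0531 CPM over the depolarized libraries) cover counting error only, since reads carry no molecular identifiers.

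The members and gene lists were chosen with earlier results of these data known. Genes named are the 10 factors, the called genes of each list or up to 2 with the lowest p, the 2 genes most like each factor, and others said to be chosen after their values were seen or given as partners and markers. Promoter sequences come from RefSeq (GRCm38.p6).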

Additional observations from a re-analysis of the deposited data

How the results depend on the processing

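Of the 10 genes, Myb, Gfi1, Cebpe, Irf8, Cebpb and Cebpd were fitted below 0 and Spi1 above 0 in the reported fit and in every alternative that could be run (10 each, and 9 for Gfi1 and Irf8, which the stricter filter of at least 1 CPM in all libraries removed). Calls appeared without pair 1 for Myb, Irf8, Cebpe and Mxd1, without pair 3 and with no filter (-1.21) for Myb. Calls over all genes were also more frequent in these settings. Without pair 1, 518 of 10102 genes tested were called lower, without pair 3 74 of 10045 and with no filter 96 of 21979. The reported fit called 24 of 9971 lower. Leaving out each pair in turn gave log2 fold changes from -1.53 to -1.03 for Myb, from -2.58 to -1.90 for Irf8, from -0.71 to -0.54 for Cebpe, from -0.28 to 0.10 for Cebpa, from -0.34 to 0.15 for Runx1 and from -0.33 to 0.13 for Mxd1. Cebpa (0.036), Runx1 (0.023) and Mxd1 (0.019) also changed sign with library totals in place of TMM, an alternative added after seeing the data. With no replicate block, 0 members were called and Myb was fitted at -1.12, Irf8 at -2.13 and Cebpe at -0.63 (edgeR adjusted p 0.536, 0.406 and 0.534).

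Over all genes, 8 were called higher and 24 lower. With no replicate block 0 and 0 were called by edgeR (511 at an unadjusted p under 0.05), with DESeq2 and the block 16 higher and 23 lower, with no filter 50 and 96, with the stricter filter 5 and 3, and with library totals 0 and 6. Without 1 pair the counts ran from 9 to 500 higher and from 36 to 518 lower. The cause of these differences was not tested. The early to late ratio moved to 9.07% in polarized and 6.66% in depolarized libraries with Spi1 left out of the late sum, and to 25.5% and 18.5% with Mxd1 left out; its mean log2 difference within pairs was -0.48 with all pairs and -0.60 to -0.23 without 1 pair. Gfi1 and Irf8 rest on 3 to 24 counts per library. Without 1 pair, 1 residual degree of freedom is left.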

Other observations

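The erythroid and mast cell factor gene Gata1 was below the filter. It was looked at because Gfi1b, which is used in the same lines, held more counts in depolarized libraries, although Gfi1b was not called. Gata1 held 1, 2 and 0 counts in the polarized and 5, 32 and 9 counts in the depolarized libraries of pairs 1, 2 and 3, and every depolarized library lay above every polarized one. Gata2, the related progenitor factor gene, held 1, 8 and 0 and 3, 0 and 0 counts. The 7 erythroid markers summed to between 35.7 and 57.1 CPM in polarized and between 25.4 and 87.6 CPM in depolarized libraries. The 5 platelet markers summed to between 0.939 and 1.22 CPM and between 0.343 and 1.48 CPM, and the 6 basophil and mast cell markers to between 0.459 and 0.763 CPM and between 0.196 and 2.61 CPM. Eosinophil markers, 8 genes, summed to between 51.0 and 473 CPM and between 58.5 and 197 CPM. All 4 lists overlapped between the groups in their sums. The highest eosinophil sum held 389 CPM of Prg2, and its members went in both directions. Il5ra held 0, 0 and 0 counts in polarized and 5, 12 and 2 in depolarized libraries. Siglecf was at 7.85, 5.87 and 7.35 CPM and 14.2, 8.34 and 11.2 CPM. Ccr3 was higher in the depolarized library of each pair, while Epx, Prg3 and Ear2 were lower in each. These genes were chosen after their values were seen, and their part in the Gata1 and Gfi1b values was not tested.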
